A study of Homo sapiens with 24 samples.

Results

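Glycolysis, the handling of pyruvate and the pentose phosphate pathway were followed here through 34 genes, chosen by symbol for their place in the pathway and all found in both sets of tables, which list 22227 genes (ligand experiment) and 23028 genes (siRNA experiment). They comprise 3 glucose transporters, 6 genes of upper glycolysis, 3 bifunctional enzymes that set fructose-2,6-bisphosphate, 8 genes of lower glycolysis, 2 lactate dehydrogenases, 4 pyruvate dehydrogenase kinases, 5 genes of mitochondrial pyruvate use and 3 genes of the pentose phosphate pathway. All libraries were poly(A) RNA from LNCaP, an androgen-dependent human prostate cancer cell line. For ChIP and quantitative RT-PCR the methods of the study name medium with charcoal-stripped serum, which removes steroids. For RNA-seq they name no serum. In the ligand experiment the groups were vehicle, 10 µM enzalutamide (an androgen receptor antagonist) for 4 h or 24 h, and 10 nM DHT (dihydrotestosterone, the natural receptor agonist) for 4 h or 24 h, with 2 replicates each; the time of the vehicle treatment is not given in the sources used here. In the siRNA experiment cells received a non-targeting siRNA pool (siControl) or a pool against GATA2 (siGATA2), a pioneer transcription factor, and from 72 h after transfection they were given vehicle or enzalutamide at 25 µM over 24 h, with 3 replicates in each of the 4 groups. Every group was one cell line, and siGATA2 lowers its target without deleting it. Fewer cells of a state and less RNA per cell cannot be told apart in such bulk libraries.

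As background, glucose enters the cell through facilitative transporters, is trapped by hexokinase and is split in a chain of reactions that ends in pyruvate. Lactate dehydrogenase turns pyruvate into lactate in the cytosol, while the mitochondrial pyruvate carrier (MPC1 with MPC2) and the pyruvate dehydrogenase complex lead it towards the citrate cycle, and pyruvate dehydrogenase kinases switch that complex off. The pentose phosphate pathway branches off after the hexokinase step and supplies NADPH and ribose. Prostate epithelium is known for its unusual citrate metabolism, and androgen is a known regulator of glucose use in prostate cancer cells.

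Levels of the ligand experiment are given as CPM (counts scaled to library size, with TMM as a between-library factor) and tests are from edgeR's quasi-likelihood fit over 15555 genes. Levels of the siRNA experiment are given as RPKM (reads scaled by transcript length and library size) and tests are from limma on log2(RPKM + 0.1) over 20369 genes, so fold changes there understate the change of low genes. A gene was called when its Benjamini-Hochberg adjusted p over all genes tested was under 0.05. Counts summed to 38894876 to 59985287 per ligand library (the depth of the siRNA libraries is not known from RPKM). GATA2 itself lay at 77.0 to 86.1 RPKM in siControl vehicle and 46.6 to 54.3 RPKM in siGATA2 vehicle, and at 128 to 132 and 60.1 to 64.7 RPKM in the respective enzalutamide groups, so the siGATA2 libraries were lower in each treatment. KLK3, the androgen-driven marker of luminal prostate cells, was called lower with enzalutamide and higher with DHT at 24 h, and basal markers summed to no more than 0.484 CPM or 0.113 RPKM in any library. Stromal markers summed to 24.2 to 24.5 CPM in vehicle, 26.3 to 29.1 at 24 h of enzalutamide and 14.9 to 16.6 at 24 h of DHT, where COL1A1, a collagen gene, was called lower (-0.65). In RPKM they summed to 10.0 to 13.3 in siControl and 13 to 16.5 in siGATA2, where COL1A1 was called higher in vehicle (0.54). These sums were almost all COL1A1, which had 23.6 and 24.2 CPM in vehicle. COL1A2, DCN and PDGFRB each stayed below 0.585 CPM in the ligand libraries. PDGFRB went the other way from COL1A1 with siGATA2 in vehicle, from 0.440, 0.415 and 0.453 to 0.275, 0.243 and 0.224 RPKM. Leukocyte markers summed to 1.47 to 1.49 CPM in vehicle and 2.80 to 2.87 at 24 h of DHT, where CD68 was called higher (0.97), and to 3.54 to 5.32 RPKM in siControl and 10.5 to 12.2 RPKM in siGATA2, where CD68, a lysosomal gene, rose (1.60 in vehicle) and the defining leukocyte gene PTPRC was at most 0.00736 RPKM. The part of these markers in the members' results was not tested. Replicate 3 of siGATA2 vehicle had the widest gap for these genes. Of the 32 members above 0.1 RPKM it was below both other replicates for 21 and above both for 4. Several counts that rest on it are therefore given with and without it. Against the other replicates of its group it was lower for 25 members (median log2 gap -0.099). It was not alone: siControl vehicle replicate 2 was lower for 25 (-0.079) and siGATA2 enzalutamide replicate 1 for 29 (-0.036). For those libraries the closing section gives ranges with 1 library left out. The labels call the ligand libraries biological replicates and do not say how the siRNA replicates were made, so p-values there measure only the spread between these libraries.

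The members span a wide range of levels. In siControl vehicle, 11 members lay at 100 RPKM or more, led by GAPDH (1061, 997 and 1043 RPKM), the glyceraldehyde phosphate dehydrogenase often used as a reference, and by ENO1 (enolase), PKM (pyruvate kinase), LDHB and ALDOA (aldolase). Another 14 members lay between 10 and 100 RPKM and 7 between 1 and 10 RPKM. SLC2A3, a neuronal-type glucose transporter, and PDK4, a pyruvate dehydrogenase kinase, lay under 0.1 RPKM. PDK4 was not tested in either experiment because its values were too low for the filters, so 33 of the 34 members were tested. Several members (GAPDH, PGK1, PGAM1, LDHA and TPI1 among them) have processed pseudogenes, and SLC2A3 has a near-identical neighbour, SLC2A14, so reads may have been split between copies in the authors' counting. PGAM1 was the clearest case in which the values of the experiments differ in scale: it had 465 CPM in vehicle but 13.5 RPKM in siControl vehicle, a quotient of 34.6, where the other members above 0.1 RPKM had quotients from 0.899 to 9.08. Its values are therefore read only within an experiment.

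**Figure D1:**
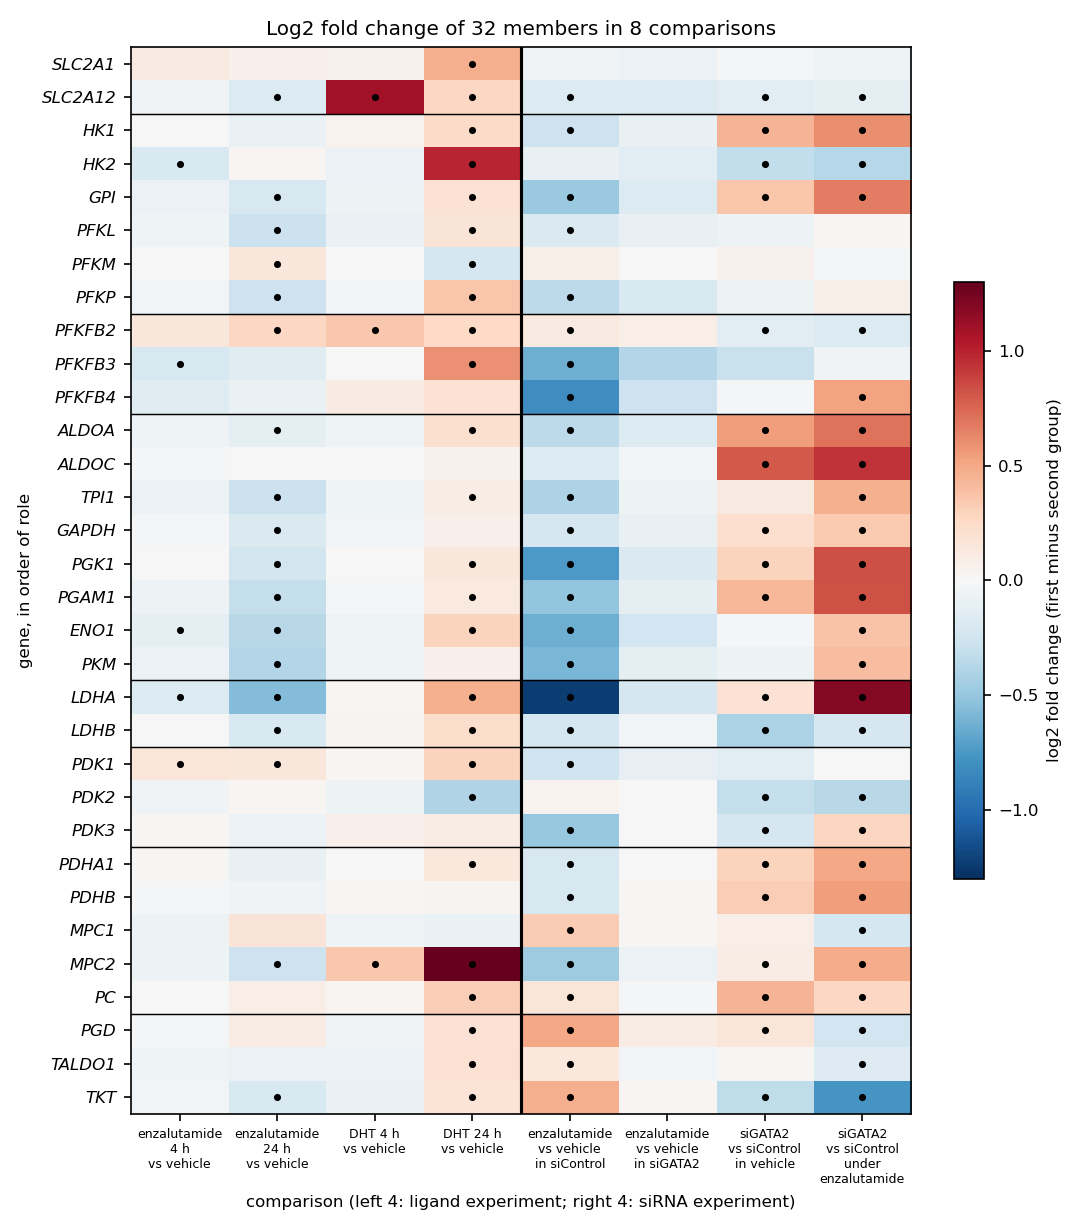
Log2 fold changes (colour) of 32 members (rows, ordered by role with lines between roles) in 4 comparisons of the ligand experiment and 4 of the siRNA experiment (columns), with a black dot where the adjusted p was under 0.05; SLC2A3 (too few reads for a fold change) and PDK4 (not tested) are left out. A reader should see lower glycolysis fall with enzalutamide at 24 h in the ligand experiment and in siControl, no dot for enzalutamide in siGATA2, and LDHA at both ends of the scale in the siRNA experiment.

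The first question was how early and how far the antagonist alone moved these genes. At 4 h of 10 µM enzalutamide few members differed from vehicle: 1 of 33 rose, against 6.94% of all genes tested, and 4 fell, against 6.68%. The members that fell were LDHA (log2 fold change -0.18 ± 0.033 SE, edgeR adjusted p = 0.00367), which makes the lactate-forming M subunit, ENO1 (-0.12), HK2 (-0.20), an inducible hexokinase, and PFKFB3 (-0.21), whose product activates phosphofructokinase. The one that rose was PDK1 (0.16). The calls for PFKFB3 and PDK1 were lost with DESeq2, and the count of called members was 2 without enzalutamide 4 h replicate 2 or vehicle replicate 1 and 3 without vehicle replicate 2 or either DHT 4 h replicate. The median over 32 members (all tested but SLC2A3, whose reads were too few) was -0.039, against 0.0015 over all genes tested. The 2 enzalutamide 4 h libraries were also the least alike of any replicate pair, with a mean chi-square per gene of 9.82 against 2.03 to 4.57 in the other pairs of separate replicates.

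At 24 h of 10 µM enzalutamide the decline was broader: 15 of 33 members fell, against 17% of all genes tested, and 3 rose, against 16.4%. Lower glycolysis accounted for 7 of the 15, with ALDOC, the brain-type aldolase, as its only member not called, and both lactate dehydrogenases fell. LDHA had 540.3 and 530.1 CPM in the vehicle libraries, 469.8 and 475 at 4 h and 369 and 356 at 24 h. The 24 h libraries lay below all others, and LDHA fell further between the times, by 0.38 on the log2 scale. Against vehicle it showed the largest fall of any member (-0.56 ± 0.033 SE, edgeR adjusted p = 2.86e-08), to 67.8% of the vehicle mean. PKM, the last ATP-forming step of glycolysis, went from 1074 and 1088 to 838 and 819 CPM (-0.38 ± 0.031 SE). ENO1 went from 1238 and 1254 CPM in vehicle to 985 and 961 (-0.36 ± 0.027 SE). Neither gene's libraries overlapped between the groups, but no member reached a 1.5-fold change in this comparison.

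Smaller falls were seen through the chain: PGAM1 (phosphoglycerate mutase, -0.31), TPI1 (triose phosphate isomerase, -0.28), PGK1 (phosphoglycerate kinase, -0.24), GAPDH (-0.19), GPI (glucose phosphate isomerase, -0.21), PFKL and PFKP (phosphofructokinases, -0.28 and -0.27), MPC2 (-0.27), LDHB (-0.20), TKT (transketolase, -0.20), SLC2A12 (a glucose transporter, -0.17) and ALDOA (-0.12). The calls for ALDOA and SLC2A12 were lost without either enzalutamide 24 h replicate or vehicle replicate 2. The members that rose were PFKFB2 (0.27), a relative of PFKFB3, the muscle-type phosphofructokinase PFKM (0.14) and PDK1 (0.14). All 3 calls were lost without enzalutamide 24 h replicate 1, and that for PDK1 also with DESeq2. The median over the same 32 members was -0.11, against 0.015 over all genes tested. The column names group the libraries by prefix, and the prefixes differ between 4 h and 24 h of enzalutamide, so time and prefix cannot be told apart there (4 members rose, against 11.7%, and 13 fell, against 12.9%, from 4 h to 24 h). Against the vehicle library of its own prefix, each of the 5 members called at 4 h and 18 called at 24 h kept its direction. That comparison reuses the treated libraries and a vehicle column that is part of vehicle replicate 1 in the fit. It is therefore a description and not a separate test, and it does not separate time from prefix.

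**Figure D2:**
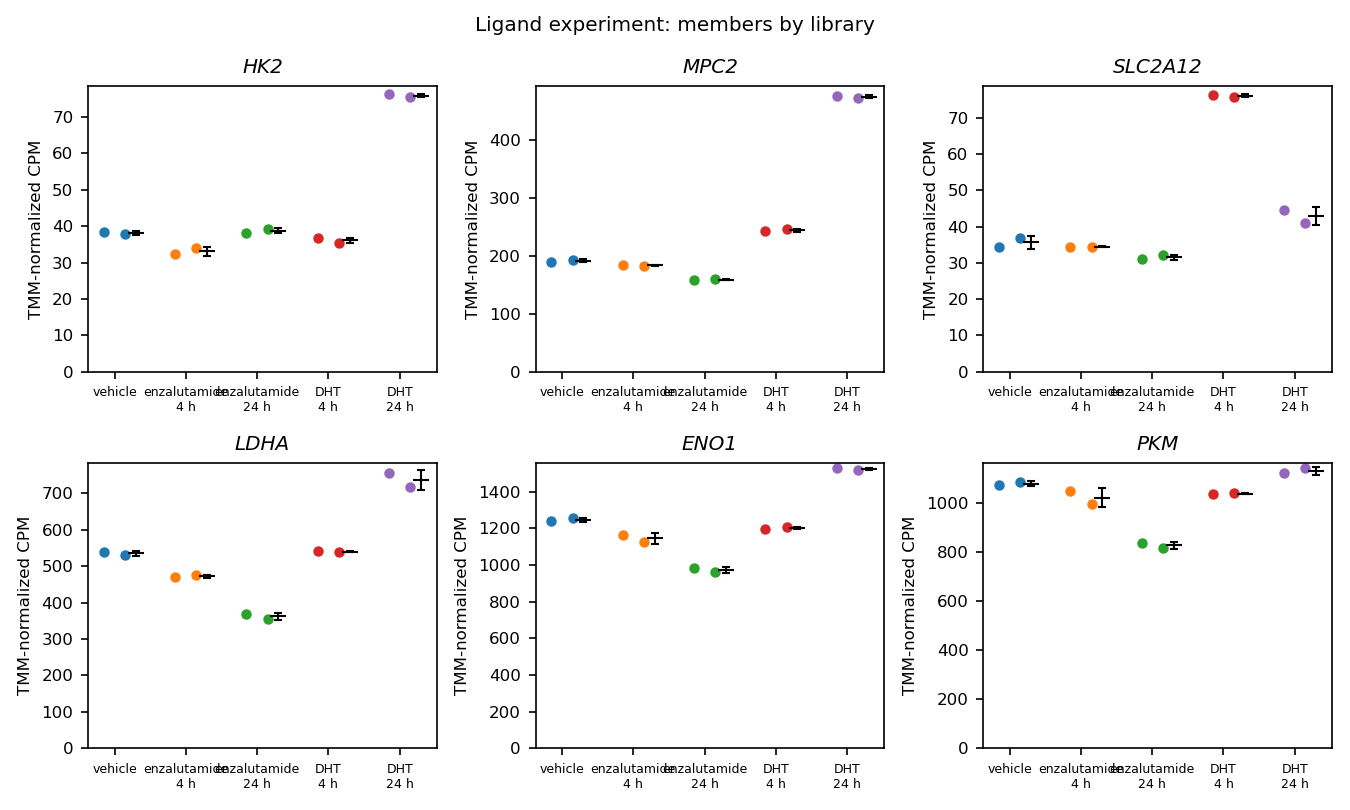
TMM-normalized CPM (vertical axes, from 0) of HK2, MPC2, SLC2A12, LDHA, ENO1 and PKM in each of the 2 libraries of the 5 ligand groups (points), with mean and SD beside them. HK2 and MPC2 stand highest at 24 h of DHT, SLC2A12 at 4 h of DHT, and LDHA, ENO1 and PKM lowest at 24 h of enzalutamide.

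The agonist moved other members first. At 4 h of DHT 4 of 33 members rose, against 4.66% of all genes tested, and none was called lower by edgeR (background 2.11%; 1 was lower at an unadjusted p under 0.05, and DESeq2 also called none). SLC2A12 had 34.4 and 36.8 CPM in vehicle, 76.3 and 75.7 at 4 h and 44.6 and 41.0 at 24 h of DHT. The transporter rose at 4 h to 213% of vehicle (1.10 ± 0.051 SE, edgeR adjusted p = 1.12e-08), and was lower again at 24 h, by 0.82 on the log2 scale, though still above vehicle (0.27). MPC2 (0.35) and PFKFB2 (0.35) rose less. SLC2A3 had 3 and 0 reads in the vehicle libraries, 2 and 0 at 4 h and 0 and 0 at 24 h of enzalutamide, 27 and 30 at 4 h of DHT and 32 and 25 at 24 h of DHT. It passed the filter on low counts only through the DHT libraries, where it stayed under 1 CPM, so nothing is read from its test. It stands in the counts of members called, and without it 3 of 32 members rose at 4 h and 23 of 32 at 24 h of DHT, and 25 of 32 were higher with DHT than with enzalutamide at 24 h. Its reads are shown as counts only, and no fold against vehicle or enzalutamide is given.

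At 24 h of DHT 24 of 33 members rose, against 26.9% of all genes tested, and 2 fell, against 23.2%. Outside SLC2A3, which is not ranked, the largest rise was that of MPC2, a subunit of the carrier that brings pyruvate into mitochondria. MPC2 had 189 and 193 CPM in vehicle and 159 and 159 CPM after enzalutamide for 24 h. With DHT it had 242 and 246 CPM at 4 h and 476 and 472 CPM at 24 h. Its libraries did not overlap between these groups, and at 24 h of DHT it reached 248% of vehicle (1.31 ± 0.031 SE, edgeR adjusted p = 3.99e-12). Its partner MPC1 stayed between 16.9 and 21.6 CPM in the ligand libraries and was not called against vehicle at 24 h of DHT (-0.08 ± 0.070 SE).

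HK2 had 38.5 and 37.8 CPM in vehicle, 36.7 and 35.5 at 4 h and 76.2 and 75.6 at 24 h of DHT. It was thus near vehicle at 4 h and about 2 times as high at 24 h (0.99 ± 0.045 SE, edgeR adjusted p = 1.56e-09), with a rise between the times of 1.07. PFKFB3 likewise went from 18.7 and 17.5 CPM in vehicle and 18.2 and 18.2 at 4 h to 27.2 and 27.7 at 24 h (0.60 ± 0.057 SE). Both genes had their DHT 24 h libraries above every other library. SLC2A1, the main basal glucose transporter, rose to 60.4 and 65.5 CPM from 45.0 and 45.7 (0.47), and LDHA to 756 and 717 CPM (0.46 ± 0.033 SE, edgeR adjusted p = 1.14e-07). PFKP rose from 64.0 and 67.9 to 82.9 and 86.9 CPM (0.36), PC (pyruvate carboxylase) by 0.32, and ENO1 to 1528 and 1518 CPM (0.29). The pentose phosphate genes TKT, PGD (phosphogluconate dehydrogenase) and TALDO1 (transaldolase) rose by 0.18, 0.19 and 0.19.

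The 2 members that fell at 24 h of DHT were PDK2 (-0.40 ± 0.060 SE), from 26.8 and 28.5 to 20.4 and 21.6 CPM, and PFKM (-0.22 ± 0.033 SE), from 219 and 221 to 187 and 191 CPM. The phosphofructokinases therefore moved in opposite directions, PFKP and PFKL up and PFKM down with DHT, and PFKP and PFKL down and PFKM up with 24 h of enzalutamide. The call for PFKL with DHT was lost without DHT 24 h replicate 2 or vehicle replicate 1. The median over 32 members was 0.19 at 24 h of DHT, against 0.0013 over all genes tested, and between 4 h and 24 h of DHT 22 members rose, against 26.3%, and 3 fell, against 23.5%. The DHT times also differ in prefix, so time and prefix cannot be told apart there either. Between the vehicle library of the same prefix and DHT, the 26 members called at 24 h kept their direction in each of the 2 prefixes available. This too reuses libraries of the fit, so it is a description and not a separate test.

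Directly between the ligands at 24 h, 26 of 33 members were higher with DHT, against 31.3% of all genes tested, and 3 were lower, against 33.6%. The widest gaps outside SLC2A3 were in MPC2 (1.58 ± 0.031 SE), LDHA (1.02 ± 0.033 SE), HK2 (0.97), PFKFB3 (0.75), ENO1 (0.65) and PFKP (0.63). PFKP lay at 55.1 and 54.3 CPM with enzalutamide and 82.9 and 86.9 with DHT. The members lower with DHT were PDK2 (-0.42), PFKM (-0.37) and MPC1 (-0.24), the last of which lost its call without DHT 24 h replicate 1 or enzalutamide 24 h replicate 1. The comparisons of enzalutamide and of DHT with vehicle share their 2 vehicle libraries. Side by side, the log2 fold changes at 24 h of enzalutamide and of DHT were -0.56 and 0.46 for LDHA, -0.36 and 0.29 for ENO1 and -0.27 and 1.31 for MPC2. For HK2 they were 0.02 and 0.99, for SLC2A1 0.07 and 0.47, and for PC 0.08 and 0.32, where the enzalutamide values of the last 3 genes were not called. The median over 32 members between the ligands was 0.36, against -0.033 over all genes tested.

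Cells with the non-targeting siRNA pool showed what a higher dose of enzalutamide did. After 24 h at 25 µM, 21 of 33 members fell in siControl, against 24.4% of all genes tested, and 6 rose, against 17.7%. The fall took in 4 of 6 genes of upper glycolysis, 7 of 8 of lower glycolysis and both lactate dehydrogenases, while all 3 pentose phosphate genes rose. LDHA had 157, 154 and 151 RPKM in siControl vehicle and 68.2, 63.7 and 64.5 with enzalutamide. The treated libraries held 42.5% of the vehicle mean (-1.23 ± 0.050 SE, limma adjusted p = 4.29e-08), the only member past a 2-fold change. PGK1 fell from 230.1, 216 and 226 to 139, 129.7 and 132 RPKM (-0.75 ± 0.068 SE, limma adjusted p = 1.18e-05).

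PFKFB4, another of the bifunctional enzymes, fell from 9.71, 8.01 and 8.80 to 5.48, 4.69 and 4.86 RPKM (-0.81 ± 0.10 SE). PFKFB3 fell from 9.53, 7.50 and 9.35 to 5.59, 5.43 and 5.78 RPKM (-0.63 ± 0.20 SE), a call that was lost without any one of siControl vehicle replicates 1 and 3 or the 3 treated replicates. In both genes the treated libraries lay below every vehicle library. ENO1 fell from 411, 372 and 403 to 268, 255 and 242 RPKM (-0.63 ± 0.067 SE), and PKM from 391, 369 and 389 to 271, 254 and 239.7 RPKM (-0.59 ± 0.050 SE). Further down the list were PGAM1 (-0.51), PDK3 (-0.49), GPI (-0.48), MPC2 (-0.46), TPI1 (-0.41), PFKP (-0.34) and HK1 (-0.27), none of which overlapped between treated and vehicle libraries.

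In the other direction, PGD had 72.8, 68.6 and 73.0 RPKM in siControl vehicle and 96.7, 102 and 105 with enzalutamide (0.50 ± 0.033 SE, limma adjusted p = 1.17e-06). TKT had 256, 235 and 259 RPKM and 328, 358 and 354 with enzalutamide (0.47 ± 0.053 SE, limma adjusted p = 4.95e-05). Every treated library of both genes was above every vehicle library. TALDO1 (0.14), MPC1 (0.33), PC (0.16) and PFKFB2 (0.11) also rose, the calls for PC and PFKFB2 being lost when siControl libraries were left out or only the compared groups were fitted. With each library centred on its median, 18 members fell and 7 rose, and the background became 19.6% and 23%. The calls for ALDOA, PDK1 and PFKL were lost in that setting, and also when single siControl libraries were left out. Over 32 members the median was -0.22, against -0.023 over all genes tested.

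The 2 doses came from separate experiments with separate vehicle libraries and differ also in transfection, deposited unit and test. By the methods of the study, the libraries were also sequenced on different instruments at different sites. Across them 14 members were called lower in both (14 of the 15 at 10 µM and 14 of the 21 at 25 µM in siControl). PFKFB2 was called higher in both. How many of all genes were called in the same direction in both was not counted. No excess among the members is therefore read from these numbers. TKT and PDK1 were called in opposite directions. TKT fell to 369.8 and 371 from 413 and 437 CPM at 10 µM (-0.20) and rose at 25 µM (0.47). PDK1 rose by 0.14 at 10 µM and fell by 0.26 at 25 µM, both calls that other settings end. The difference between the experiments was not tested, and dose, transfection, sequencing, unit and test cannot be told apart.

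The start regions of the members with the largest changes at 25 µM in siControl are shown so that their letters can be compared: LDHA, PFKFB4 and PGK1, which fell most, and PGD and TKT, which rose most. RefSeq (GRCh38.p14) gave an entry for 32 of the 34 members, all but SLC2A3 and PFKFB2. Each line is the 250 bases before the annotated start, 5′ to 3′ on the gene's strand, with ACGTG (the core of the hypoxia response element) and its reverse complement CACGT in capitals. They lie at chr11:18394313-18394562 (plus strand), chr3:48556804-48557053 (minus strand), chrX:78103998-78104247 (plus strand), chr1:10398814-10399063 (plus strand) and chr3:53256023-53256272 (minus strand).
LDHA: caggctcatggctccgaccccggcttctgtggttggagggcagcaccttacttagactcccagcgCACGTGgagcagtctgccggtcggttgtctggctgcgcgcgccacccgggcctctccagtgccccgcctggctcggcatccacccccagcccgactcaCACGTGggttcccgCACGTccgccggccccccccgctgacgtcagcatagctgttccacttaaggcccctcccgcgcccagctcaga
PFKFB4: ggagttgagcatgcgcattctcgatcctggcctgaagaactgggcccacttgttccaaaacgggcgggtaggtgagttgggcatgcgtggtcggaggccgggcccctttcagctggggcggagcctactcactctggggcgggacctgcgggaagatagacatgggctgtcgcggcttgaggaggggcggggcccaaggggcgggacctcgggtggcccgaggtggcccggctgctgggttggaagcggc
PGK1: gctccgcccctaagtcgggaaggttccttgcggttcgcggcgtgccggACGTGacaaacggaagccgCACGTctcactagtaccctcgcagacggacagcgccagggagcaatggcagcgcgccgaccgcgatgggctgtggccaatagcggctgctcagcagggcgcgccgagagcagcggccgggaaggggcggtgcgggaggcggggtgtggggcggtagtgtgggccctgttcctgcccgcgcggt
PGD: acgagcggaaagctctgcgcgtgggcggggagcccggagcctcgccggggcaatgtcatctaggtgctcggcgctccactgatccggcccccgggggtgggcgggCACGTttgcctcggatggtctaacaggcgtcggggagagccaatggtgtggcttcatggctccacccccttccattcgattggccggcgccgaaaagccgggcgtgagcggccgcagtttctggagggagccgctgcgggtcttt
TKT: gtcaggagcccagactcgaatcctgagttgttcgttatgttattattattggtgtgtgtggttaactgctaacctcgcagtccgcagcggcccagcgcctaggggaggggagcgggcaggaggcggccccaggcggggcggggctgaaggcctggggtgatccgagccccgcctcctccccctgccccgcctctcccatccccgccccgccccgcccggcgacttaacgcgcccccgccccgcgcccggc
LDHA holds 3 separate stretches with these letters, 2 of which are the E-box CACGTG and so contain ACGTG on both strands, PGK1 holds 2 stretches and PGD 1, while PFKFB4, which fell, and TKT, which rose, hold none. Over the members with an entry, 11 of 32 (34.4%) held ACGTG on either strand, against 18.7% of 27305 RefSeq promoters. The E-box CACGTG, counted within that number, was in 4 (12.5%, against 6.49%). AGAACA, a hexamer of the androgen receptor element, was in 3 (9.38%, against 12.4%). A match describes letters only, and these windows were not measured for binding in the files used here.

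**Figure D3:**
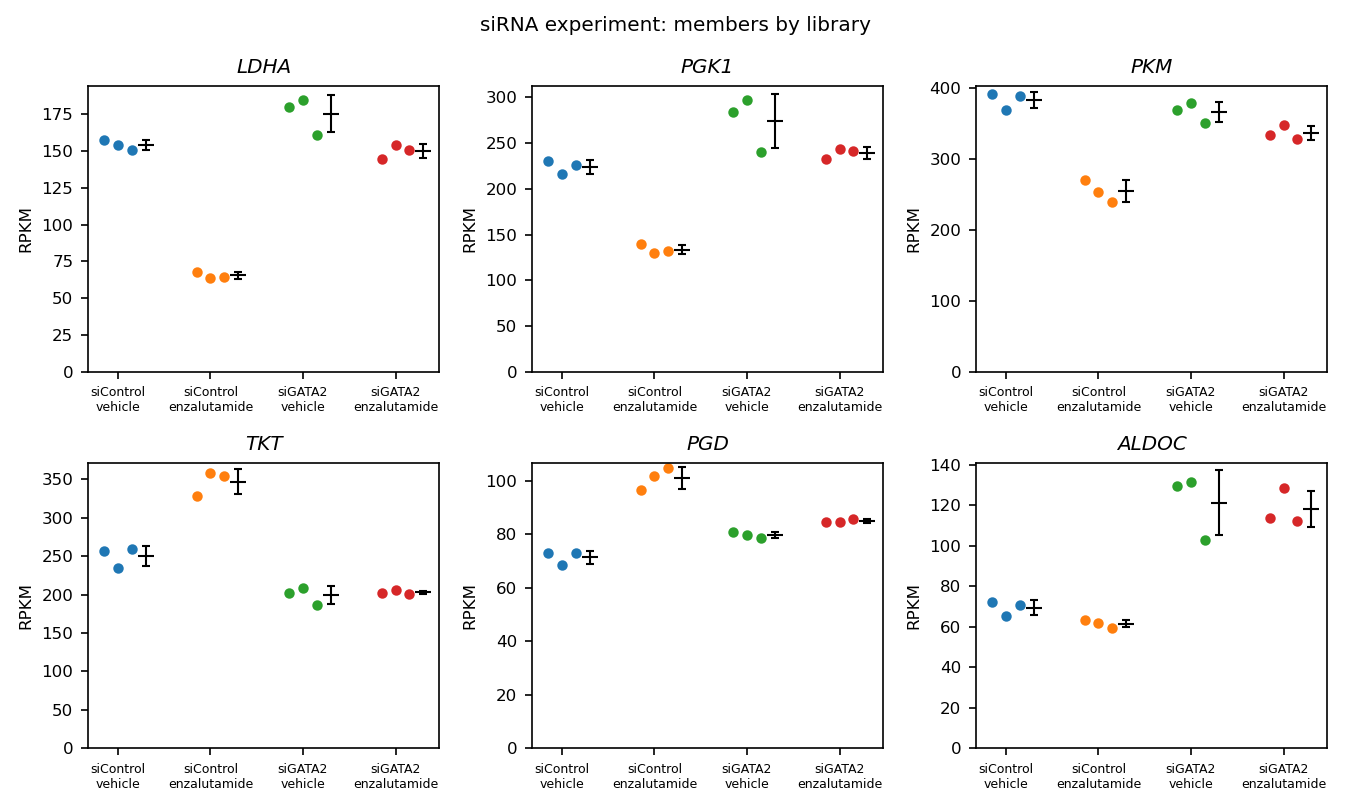
RPKM (vertical axes, from 0) of LDHA, PGK1, PKM, TKT, PGD and ALDOC in each of the 3 libraries of the 4 siRNA groups (points), with mean and SD beside them. LDHA, PGK1 and PKM are lowest, and TKT and PGD highest, in siControl with enzalutamide, while ALDOC is higher in both siGATA2 groups.

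With GATA2 silenced, no member passed the test for enzalutamide. limma called no member higher (background 0.221%) and none lower (background 0.191%) with 25 µM enzalutamide in siGATA2 cells, while 10 members passed an unadjusted p under 0.05, 8 of them lower. The median over 32 members was -0.087, against -0.010 over all genes tested. LDHA had 180.0, 185 and 161 RPKM in siGATA2 vehicle and 145, 154 and 151 with enzalutamide. These groups did not overlap, but the difference (-0.22 ± 0.050 SE, limma adjusted p = 0.117) was not called. Without replicate 3 of siGATA2 vehicle 4 members were called lower: LDHA (-0.28), PGK1 (-0.28), HK2 (-0.23) and SLC2A12 (-0.21). The share of all genes called without that library is not given here, so no excess among the members is read from these calls. With only genes of at least 1 RPKM in 3 libraries LDHA alone was called (limma adjusted p = 0.0462). No other test tool was run on RPKM.

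The difference between these enzalutamide effects was tested as an interaction: 12 of 33 members were called positive (a smaller fall or larger rise with siGATA2), against 15% of all genes tested, and 4 negative, against 10.8%. The interaction was largest for LDHA (1.01 ± 0.071 SE, limma adjusted p = 7.50e-06), with enzalutamide effects of -1.23 in siControl and -0.22 in siGATA2. PGK1 followed (0.56 ± 0.096 SE), with effects of -0.75 and -0.19. PFKFB4 (0.53), PDK3 (0.49), PKM (0.47), ENO1 (0.39), PGAM1 (0.39), MPC2 (0.38), TPI1 (0.34), PDHA1 (0.22), PDHB (0.22) and HK1 (0.17) were the other positive members. The negative members were TKT (-0.44 ± 0.074 SE), with effects of 0.47 and 0.03, PGD (-0.41 ± 0.046 SE), with 0.50 and 0.09, MPC1 (-0.32) and TALDO1 (-0.18). The median effect over the 21 members that fell in siControl was -0.41 in siControl and -0.12 in siGATA2, and all 21 were smaller in size in siGATA2, where 19 were still negative. Without replicate 3 of siGATA2 vehicle the siGATA2 median was -0.16 and 19 of the 21 were smaller, the exceptions being PFKFB3 (-0.63 in siControl and -0.66 in siGATA2) and SLC2A12 (-0.18 and -0.21). Over 32 members the median interaction was 0.15, against 0.015 over all genes tested, and it was 0.031 without that library. The 21 were chosen on the siControl effect, so these numbers are a description. Without replicate 3 of siGATA2 vehicle the interaction was called for 13 members up and 4 down. The matching share of all genes is not given here, so no excess among the members is read from that count. The call for PDHB was lost when any of 4 enzalutamide libraries was left out.

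**Figure D4:**
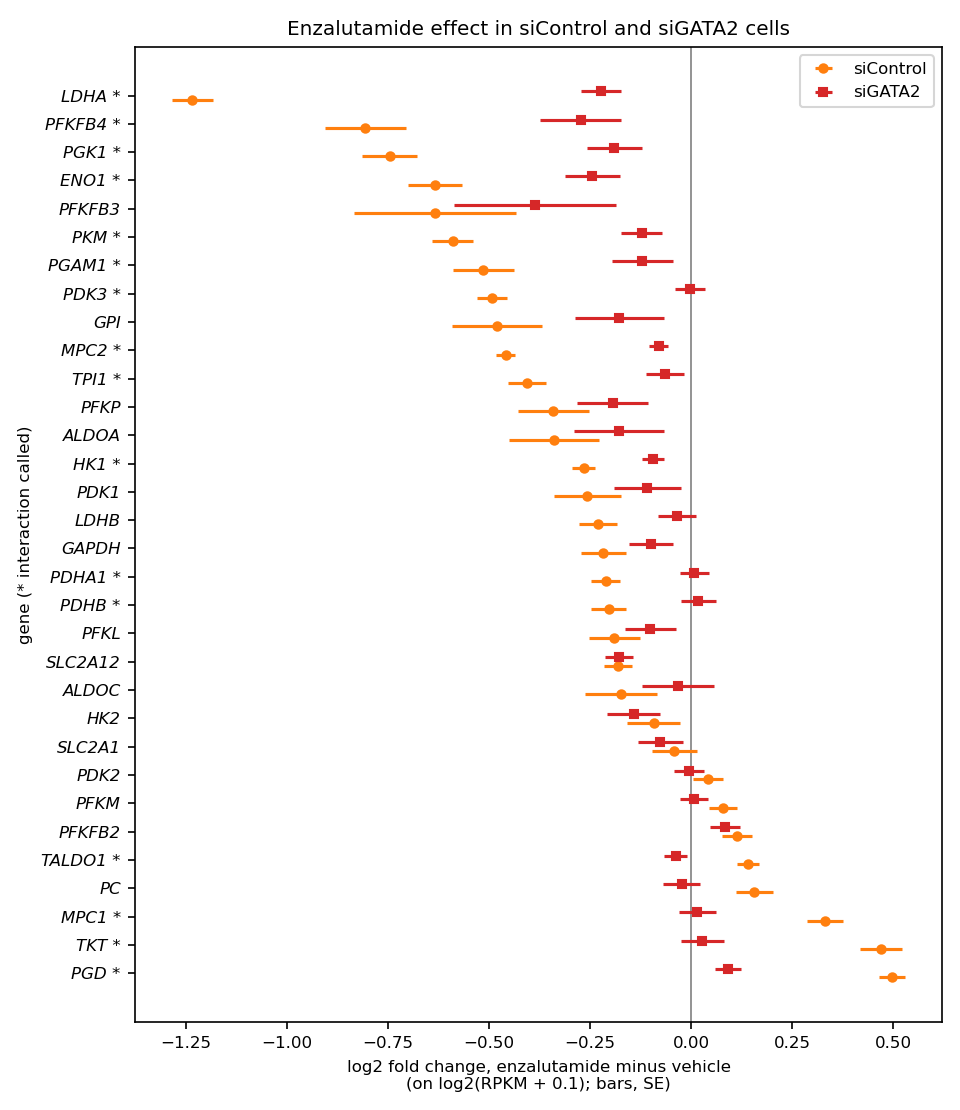
Log2 fold change of enzalutamide against vehicle on log2(RPKM + 0.1) (horizontal axis, bars SE) for 32 members (rows, ordered by the siControl value) in siControl (circles) and siGATA2 cells (squares), with an asterisk where the interaction was called. The siControl points run from -1.23 for LDHA to 0.50 for PGD, while the siGATA2 points lie between -0.39 (PFKFB3, -0.66 without siGATA2 vehicle replicate 3) and 0.09.

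Silencing GATA2 by itself shifted the members in both directions. In vehicle 13 of 33 were higher with siGATA2, against 24.2% of all genes tested, and 7 were lower, against 31.4%. With libraries centred on their median the split was 17 higher and 5 lower, with a background of 30.4% and 26.4%. ALDOC rose most, from 72.5, 65.3 and 70.7 RPKM in siControl to 129.8, 131 and 103 (0.80 ± 0.089 SE, limma adjusted p = 2.06e-05), and its groups did not overlap. ALDOA had 367, 315 and 366 RPKM in siControl and 568, 555 and 417 in siGATA2 (0.55 ± 0.11 SE), with replicate 3 of siGATA2 nearest to siControl. HK1, the constitutive hexokinase, rose from 49.1, 46.6 and 47.5 to 63.5, 65.3 and 65.2 RPKM (0.44 ± 0.028 SE), and so did PC (0.45) and the pyruvate dehydrogenase subunits PDHB (0.32) and PDHA1 (0.29). GPI went from 189, 163 and 190.4 to 264, 251 and 189.6 RPKM (0.37 ± 0.11 SE), a call lost without siGATA2 vehicle replicate 1 or 2 or siControl vehicle replicate 2.

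The median over 32 members in vehicle was 0.036, against -0.027 over all genes tested. Without replicate 3 of siGATA2 vehicle it was 0.079, and 14 members were higher and 7 lower. For that fit the share of all genes called is not given here, so no excess is read from the count. The members lower with siGATA2 in vehicle were LDHB (-0.41 ± 0.047 SE), TKT (-0.33), HK2 (-0.32), PDK2 (-0.31), PDK3 (-0.21), PFKFB2 (-0.14) and SLC2A12 (-0.13). LDHB had 364, 361 and 357 RPKM in siControl and 257, 279 and 279.9 in siGATA2, whereas LDHA was slightly higher (0.18). PFKFB2 and SLC2A12 lost their calls with median centring. Of the kinases, PDK2 had 15.4, 14.6 and 15.0 RPKM in siControl and 12.3, 12.1 and 11.8 in siGATA2, and the 2 hexokinases moved in opposite directions, HK2 to 5.35, 5.52 and 4.48 from 6.42, 6.30 and 6.48 RPKM.

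Under enzalutamide the gap between the siRNA pools was wider: 17 of 33 members were higher with siGATA2, against 26.3% of all genes tested, and 9 were lower, against 28.1%. All 8 genes of lower glycolysis were higher. LDHA led with 145, 154 and 151 RPKM in siGATA2 against 68.2, 63.7 and 64.5 in siControl (1.20 ± 0.050 SE, limma adjusted p = 1.34e-08), followed by ALDOC (0.94), PGK1 (0.84), PGAM1 (0.83), ALDOA (0.71), GPI (0.67) and HK1 (0.61). PGK1 had 232, 244 and 241 RPKM in siGATA2 with enzalutamide, near siControl vehicle. PGAM1 had 16.4, 18 and 16.0 RPKM against 10.6, 9.16 and 8.51 in siControl with enzalutamide, and 18.8, 17.8 and 18 against 14.0, 12.7 and 13.6 in vehicle. Its siGATA2 libraries were above the siControl libraries in each treatment. For 32 members the median was 0.27 under enzalutamide, against -0.0026 over all genes tested.

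The pentose phosphate genes went the other way, all 3 lower with siGATA2 under enzalutamide. TKT had 202, 206 and 201 RPKM against 328, 358 and 354 in siControl (-0.77 ± 0.053 SE, limma adjusted p = 4.67e-07), the lowest log2 fold change of any member there, and PGD had 84.7, 84.6 and 85.7 against 96.7, 102 and 105 (-0.25). In vehicle TKT was likewise lower (-0.33), with 203, 209 and 187 RPKM in siGATA2, but PGD was higher (0.16), with 80.8, 79.6 and 78.8. Over both treatments, 12 members were called higher with siGATA2 in each and 6 lower in each. The matching share of all genes was not counted, nor were these counts made without replicate 3 of siGATA2 vehicle. No excess among the members is read from them.

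**Figure D5:**
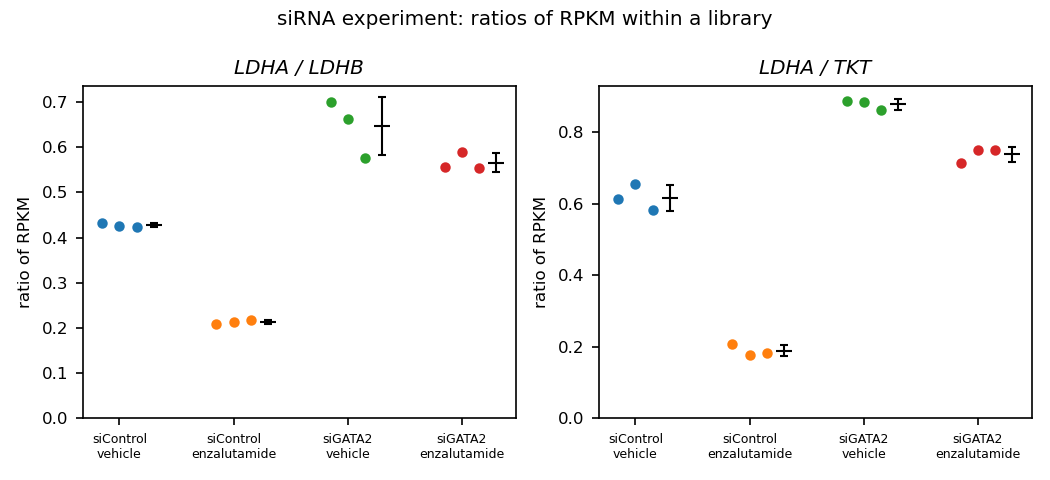
Quotient of RPKM values within each library (vertical axes, from 0) for LDHA over LDHB (left) and LDHA over TKT (right) in the 4 siRNA groups, 3 libraries each (points), with mean and SD. Both quotients are lowest in siControl with enzalutamide (0.213 ± 0.005 and 0.189 ± 0.016) and highest in siGATA2 vehicle (0.646 ± 0.064 and 0.879 ± 0.015).

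The 2 lactate dehydrogenase genes, of which LDHB makes the H subunit common in oxidative tissue, can be set against each other per length in the RPKM tables. LDHA over LDHB was 0.432, 0.427 and 0.423 in siControl vehicle and 0.208, 0.213 and 0.218 with enzalutamide. In siGATA2 it was 0.70, 0.663 and 0.575 in vehicle and 0.555, 0.589 and 0.553 with enzalutamide. The siControl enzalutamide libraries lay below all others, and the siGATA2 groups overlapped each other and lay above siControl. LDHA over TKT, likewise a quotient of mRNA levels, was 0.617 ± 0.037 (SD, n = 3) in siControl vehicle and 0.189 ± 0.016 (SD, n = 3) with enzalutamide, against 0.879 ± 0.015 and 0.739 ± 0.020 in siGATA2.

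Other genes of the same pathways were called in both directions. Of 39 tested in the ligand experiment, 8 rose (background 16.4%) and 5 fell (17%) at 24 h of enzalutamide, and 12 rose (26.9%) and 11 fell (23.2%) at 24 h of DHT. Of 46 tested in the siRNA experiment, 16 rose (17.7%) and 9 fell (24.4%) with enzalutamide in siControl, 1 rose in siGATA2 (PYGL, glycogen phosphorylase, 0.45), and 8 interactions were positive (15%) and 8 negative (10.8%). PCK2, the mitochondrial phosphoenolpyruvate carboxykinase, had the lowest p of this list with enzalutamide at 24 h (0.98 at 10 µM and 1.46 at 25 µM in siControl), and its interaction with siGATA2 was -1.27. SLC16A1, a lactate and pyruvate transporter, rose by 0.40 and 0.63 in the same comparisons, with an interaction of -0.61. DLAT, a core subunit of pyruvate dehydrogenase, fell by 0.50 in siControl with an interaction of 0.49 and rose by 0.42 at 24 h of DHT.

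Since LDHA, PGK1 and several other members are also known hypoxia-responsive genes, 18 such genes outside the members were read beside them. In siControl 4 rose (background 17.7%) and 6 fell (24.4%) with enzalutamide, and in the ligand experiment 6 of 17 rose (16.4%) and 3 fell (17%) at 24 h. DDIT4 (1.75) and VEGFA (1.13) rose with enzalutamide in siControl while CA9 fell (-2.18). Proliferation genes were read beside the members as well. The summed level of MKI67, TOP2A, CCNB1, CDK1 and MCM2 was 879 to 908 CPM in vehicle, 384 to 397 at 24 h of enzalutamide and 1349.9 to 1363 at 24 h of DHT, and all 5 were called down and up respectively. In the siRNA experiment it was 294 to 311 RPKM in siControl vehicle, 133 to 141 with enzalutamide, 205 to 218 in siGATA2 vehicle and 183 to 192 with enzalutamide. All 5 had a positive interaction, and all 5 were called lower with siGATA2 in vehicle, where 13 members were higher and 7 lower. The part of this shift in the members' results was not tested.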

How the data were processed

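The 34 members and all gene lists were chosen with earlier results of these data known. Per the methods of the study and the deposited processing notes, reads were aligned to hg19 with TopHat2 (2.0) and quantified per gene with Partek. The annotation is not given in the sources used here. For the ligand experiment the authors deposited estimated counts per gene, not normalized and not whole, which were rounded. The labels list 4 vehicle samples as biological replicates 1 to 4, but 3 of the 4 deposited vehicle columns name replicate 1, each under another prefix that is not explained, and 1 names replicate 2. The columns of replicate 1 differed less from each other (mean chi-square per gene 1.53 to 1.56) than from replicate 2 (3.56 to 3.74) and were summed as 1 sample, and an alternative took every column as a sample. For the siRNA experiment the authors deposited RPKM values. Columns of values not used numbered 0.

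Counts were fitted with edgeR 4.0.16 (TMM, filterByExpr, quasi-likelihood, 5 groups in 1 fit), and RPKM with limma 3.58.1 (log2 of RPKM plus 0.1, trend, genes above 0 in at least 3 libraries, 4 groups in 1 fit), in R 4.3.3. The scripts were tested on simulated data. A member was given in every library where it was called and changed at least 1.5-fold in any comparison, the members with the largest rise and fall came first, and genes of other lists were counted, with at most 3 values per comparison by lowest adjusted p. Alternatives were DESeq2 1.42.0, other scalings, filters and pseudocounts, a replicate block, fitting only the groups compared, other uses of the vehicle columns, and leaving out each library. Same-numbered libraries deviated together in every pair (correlations 0.113, 0.241 and 0.148) only between the 2 enzalutamide groups of the siRNA experiment. There the block left the counts at 17 higher and 9 lower. Arms left with 1 library are assumed to vary like the other groups. Promoters are RefSeq's for GRCh38.p14, another build than the files.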

Additional observations from a re-analysis of the deposited data

Results flagged for a closer look

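Between siControl and siGATA2 cells the effect of enzalutamide differed by the interaction term of limma for 16 members. In log2 units (effect in siGATA2 minus effect in siControl) the positive differences were 1.01 for LDHA, 0.56 for PGK1, 0.53 for PFKFB4, 0.49 for PDK3, 0.47 for PKM, 0.39 for both ENO1 and PGAM1, 0.38 for MPC2, 0.34 for TPI1, 0.22 for both PDHA1 and PDHB, and 0.17 for HK1. The negative differences were -0.44 for TKT, -0.41 for PGD, -0.32 for MPC1 and -0.18 for TALDO1. Between 4 h and 24 h of DHT, 4 members differed by 1.5-fold or more in edgeR's test: HK2 (1.07), MPC2 (0.96) and PFKFB3 (0.59) were higher at 24 h, and SLC2A12 (-0.82) was lower. These are differences between the DHT groups themselves, in log2 units, and the times differ in the prefix of their column names.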

How the results depend on the processing

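No called member changed direction under any setting run. Of 213 calls of single members over the 12 comparisons, 176 held in every setting and 37 were lost in at least 1, of which 12 only when a library was left out. Counts of called members stayed within 1.5 times except in a pair of comparisons. At 4 h of enzalutamide 5 members were called, but 3 with DESeq2, with the replicate block, or with vehicle replicate 1 taken from the column of either of 2 prefixes, and 1 when only the compared groups were fitted. With every vehicle column as a sample, 7 and 21 members were called at 4 h and 24 h of enzalutamide and 4 and 28 at 4 h and 24 h of DHT. That setting takes columns that name the same replicate as separate samples. Its share of all genes called is not given here, so no excess among the members is read from it. For enzalutamide in siGATA2 the 0 calls became 1 with a filter at 1 RPKM. With 1 library left out, the counts ran from 2 to 7 (enzalutamide 4 h), 13 to 22 (enzalutamide 24 h), 24 to 27 (DHT 24 h), 25 to 31 (DHT against enzalutamide at 24 h), 12 to 18 (enzalutamide 24 h against 4 h), 24 to 26 (DHT 24 h against 4 h), 22 to 28 (siControl), 0 to 4 (siGATA2), 19 to 21 and 26 to 26 (siGATA2 against siControl in vehicle and under enzalutamide) and 15 to 17 (interaction), while DHT 4 h stayed at 4. The replicate block, whose numbers pair the samples only between the enzalutamide groups of the siRNA experiment, gave 17 members at 24 h of enzalutamide, 26 at 24 h of DHT, 26 in siControl and 16 interactions. Elsewhere the correlations of same-numbered libraries ran from -0.342 to 0.28. By library size alone the background at 24 h of DHT was 21.3% higher and 29.3% lower, and with median centring it was 0.26% and 0.133% for enzalutamide in siGATA2. The cause of these shifts was not tested. SLC2A3 and PDK4 lay too near 0 reads for fold changes against vehicle.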
